A study of Homo sapiens with 12 samples.

Results

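C19MC, the chromosome 19 microRNA cluster, is a run of related miRNA hairpins on the long arm of human chromosome 19. Its members were taken by name from a table of mature miRNA counts: every entry called miR-498, miR-512, miR-515 to miR-527 with their letters, miR-1283 or miR-1323, whichever arm of the hairpin it named. This gave 61 of the 2588 entries of the table. Of the 61 entries, 39 had at least 1 count in the 12 libraries and 22 had none. Many members are tandem copies of each other, so entries with identical counts in all 12 libraries were taken once, which left 25 distinct C19MC sequences or sets of sequences.

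The libraries were small RNA libraries made from MDA-MB-231 cells (a line of triple-negative breast cancer) and from their extracellular vesicles (EVs). They came from 3 derived lines. The control line carried an empty lentiviral vector, the knockdown line a lentiviral short hairpin RNA against RAB27A, and the knockout line a deletion of miR-122 made by CRISPR-Cas9 with 2 guide RNAs. The liver miRNA miR-122 is abundant in hepatocytes, and the small GTPase RAB27A is known for bringing vesicle-filled endosomes to the cell surface. Cells were grown with 10% fetal bovine serum, then conditioned serum-free medium with 1% bovine serum albumin for 24 h, from which EVs were pelleted by ultracentrifugation and the cells collected at the same time. Each of the 6 groups, cells or EVs of one line, had 2 replicates. Each genotype was represented by 1 derived line, and a control line for the CRISPR-Cas9 procedure was not analysed here. Nothing in the labels says whether the 2 replicates were grown as separate cultures. The p-values therefore cover the spread between these libraries alone, and that spread may be technical.

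C19MC is found only in primates. It is imprinted and transcribed from the paternal copy, chiefly in the trophoblast of the placenta, and most adult tissues hold little of it. Trophoblasts release C19MC miRNAs in vesicles into maternal blood. Each hairpin can give a 5p and a 3p mature arm, and a mature miRNA finds its targets mainly through its seed, bases 2 to 8 from its 5′ end. Several C19MC members carry the AAGUGC core that is shared with the pluripotency miRNAs of the miR-302 and miR-371 to miR-373 clusters and, shifted by a base, with the miR-17 family.

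Mature sequences of the most counted C19MC entries are given here 5′ to 3′ as RefSeq lists them (GRCh38.p14), with the seed in capitals. They are shown because they have different seeds and because one of them is shared by 6 entries. The list lacks miR-522-3p, the most counted after miR-516a-5p, for which the RefSeq table held no sequence.
miR-516a-5p: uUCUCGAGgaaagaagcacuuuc
miR-523-5p, miR-522-5p, miR-519c-5p, miR-519b-5p, miR-519a-5p and miR-518e-5p: cUCUAGAGggaagcgcuuucug
miR-1283: uCUACAAAggaaagcgcuuucu
miR-519a-3p: aAAGUGCAuccuuuuagagugu
miR-521: aACGCACUucccuuuagagugu
miR-518a-5p: cUGCAAAGggaagcccuuuc
miR-516a-3p and miR-516b-3p: uGCUUCCUuucagagggu

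A single sequence made up most of the cluster's signal. Over the 12 libraries miR-516a-5p had 14793 of the 20544 C19MC counts, or 72.0%, and no other C19MC entry with a reference sequence shared its seed. The next was miR-522-3p with 2973 counts. The sequence shared by the 6 entries of the 5p arms, called the shared miR-518e-5p sequence from here on, had 1099 counts. miR-1283 followed with 819 counts, miR-519a-3p with 532, miR-521 with 172, miR-518a-5p with 54 and the 3p arm common to miR-516a and miR-516b with 51. The entry miR-527 had the same counts as miR-518a-5p. These 8 sequences cover 15 entries.

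The remaining 17 sequences or sets, covering 24 entries, were close to the limit of detection. They had 51 counts in all, 0.248% of the C19MC total, and 7 of them were seen in 1 library only. The highest was miR-512-3p with 8 counts, then miR-1323 with 6 and miR-516b-5p with 5. The entries miR-517a-3p and miR-517b-3p shared 4 counts, and miR-518b, miR-520f-3p and miR-525-5p had 4 each. Several of these, such as miR-512-3p, miR-517a-3p and miR-518b, are known as abundant placental miRNAs. Among the entries with no count were miR-517c-3p, miR-518c-3p, miR-519d-3p, miR-520a-3p, miR-520d-3p and miR-525-3p.

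Close relatives of the counted sequences were nearly absent. Positions are counted from 1 at the 5′ end, and the capitals mark the bases that differ. The shared miR-518e-5p sequence and miR-526a differ by the single change G15A, outside the seed.
miR-518e-5p: cucuagagggaagcGcuuucug
miR-526a: cucuagagggaagcAcuuucug
The first had 1099 counts, and miR-526a, whose sequence is also that of miR-518d-5p and miR-520c-5p, had 1. For the 3p arms of miR-519, which share the seed AAGUGCA, the changes also lie outside the seed.
miR-519a-3p: aaagugcauccuuuuagagUGu
miR-519b-3p: aaagugcauccuuuuagagGUu
These differ by U20G and G21U, with 532 counts against 1. miR-519c-3p, which differs from miR-519a-3p by C11U, U20G and G21A, had 3 counts. How the authors' counting treated a read that fits more than one entry is not given in the sources used here, so counts of near-identical entries are uncertain to that extent, and identical entries cannot be assigned to a hairpin.

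The counted sequences also shared a place in the cluster. RefSeq's miRNA table, as used here, places 43 C19MC hairpins on the plus strand of chromosome 19. They run from 53666679 to 53762430 on GRCh38.p14, a span of 95.75 kb. The 43 include no hairpin named MIR498, MIR517A or MIR520F, so the map is not the whole cluster. The deposited table holds names and no coordinates, and the authors' own build was hg19. The last 8 hairpins are MIR521-1, MIR522, MIR519A1, MIR527, MIR516A1, MIR1283-2, MIR516A2 and MIR519A2, from 53748636 to 53762430, a stretch of 13.79 kb. That stretch was chosen after the counts were seen, and it is given as a description. A copy of each of the 8 sequences with 50 or more counts lies in it, with miR-522-3p and miR-527 placed by name. miR-516a-5p, miR-522-3p and miR-519a-3p have no mapped copy elsewhere in the cluster, and these 3 made up 89.1% of all C19MC counts. The 17 sequences or sets without a mapped copy in the stretch are the ones with 51 counts in all. Among them, miR-498 and miR-520f-3p have no hairpin on the map. Of the sequences shared with earlier hairpins, the shared miR-518e-5p sequence has 4 copies before the stretch and 2 in it, and miR-1283 and miR-521 have 1 copy before and 1 in it.

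**Figure D1:**
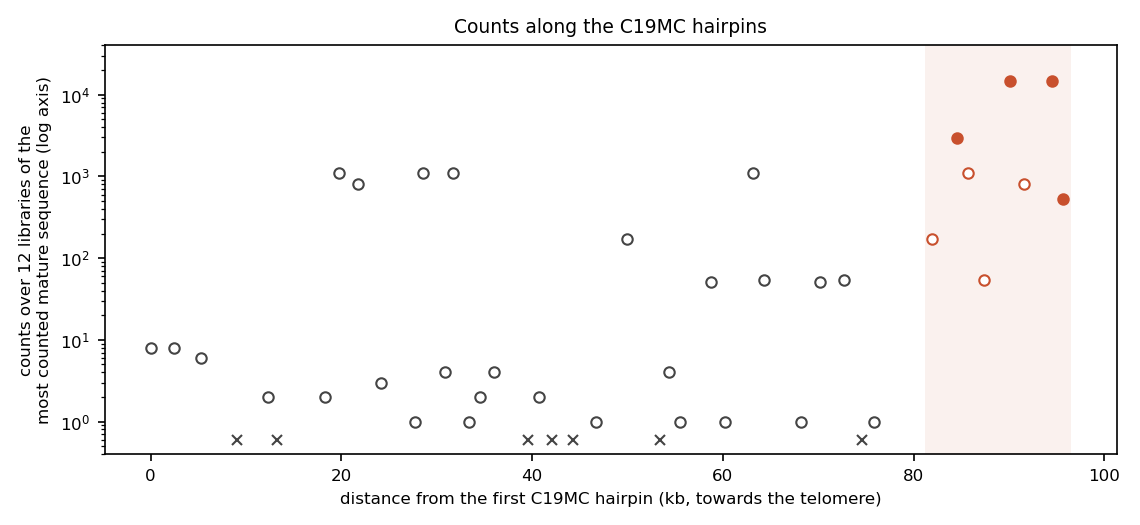
Each of the 43 mapped C19MC hairpins is placed by its distance in kb from the first hairpin (x axis). The y axis (log scale) gives the counts, summed over 12 libraries, of the most counted mature sequence of that hairpin. Crosses mark hairpins with no count or, for MIR526A1, no linked entry. The shaded band holds the last 8 hairpins, and filled points are those whose plotted sequence occurs only there. Open points show a sequence that also occurs at another hairpin or, outside the band, any other sequence, so the points at 1099 and 819 counts left of the band are copies of the shared miR-518e-5p sequence and miR-1283 and cannot be assigned to those hairpins.

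Library size set how far the lower members could be followed. Totals ran from 164656 counts in a knockdown EV library to 11840597 in a control cell library, so 1 count stood for 5.87 to 6.07 CPM (counts per 1000000 counts of the library) in the knockdown EVs and for 0.0845 to 0.0904 CPM in the control cells. Cells of the control line gave 5 and 4 counts of the deleted miR-122-5p (mean 0.392 CPM), knockdown cells 39 and 40 (12.5 CPM), and knockout cells none. Its EV counts were 790 and 651 in the control line, 7 and 5 in the knockdown line and 4 and 3 in the knockout line. In mean CPM, which allows for library size, these were 291, 35.9 and 1.01. The EV values are no check of the deletion, since miR-451a of red blood cells was also lower in knockout EVs. It had 11917 and 10324 counts in control EVs and 139 and 25 in knockout EVs. RAB27A messenger RNA was not measured by this assay. A list of 6 miRNAs, miR-21-5p, miR-100-5p, miR-221-3p, miR-222-3p, miR-29a-3p and miR-31-5p, had summed levels from 475843 to 689236 CPM over the groups. Of these 6, miR-31-5p added almost nothing to the sum. It had 11 counts in all, 8 and 3 of them in the control EVs, and none in any cell library. The 5 miR-200 family entries, listed as low or absent in mesenchymal-like cells, were all detected in every group, with summed levels of 136 to 421 CPM. Of 9 pluripotency and germ cell entries, 3 had any count, and their sum was at most 0.209 CPM in any group. Blood and serum miRNAs stood at 10685 ± 1157 CPM (SD, n = 2) in the control EVs and at 111 to 277 CPM in the other 5 groups, and their part in the EV comparisons was not tested.

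The summed C19MC level differed between the lines. In control cells it was 114 ± 1.57 CPM (SD, n = 2), in knockdown cells 306 ± 8.81 CPM and in knockout cells 649 ± 55.0 CPM. The EVs gave 126 ± 5.46 CPM in the control line, 216 ± 72.7 CPM in the knockdown line and 337 ± 14.1 CPM in the knockout line. The knockdown EV value rested on 44 and 28 counts. No cell library of one line overlapped with one of another line, and the same held for the EV libraries of the 3 lines. In bulk libraries a higher level in every cell and a higher share of cells with the miRNA cannot be told apart.

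Among all miRNAs C19MC stayed a minor component. It was between 0.0113% and 0.0688% of the counts of a library. In control cells miR-516a-5p was the 165th and 163rd most counted miRNA, in knockdown cells the 105th and 108th, and in knockout cells the 70th and 69th. In EVs its rank was 181 and 190 in the control line, 119 and 150 in the knockdown line, and 102 and 103 in the knockout line.

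**Figure D2:**
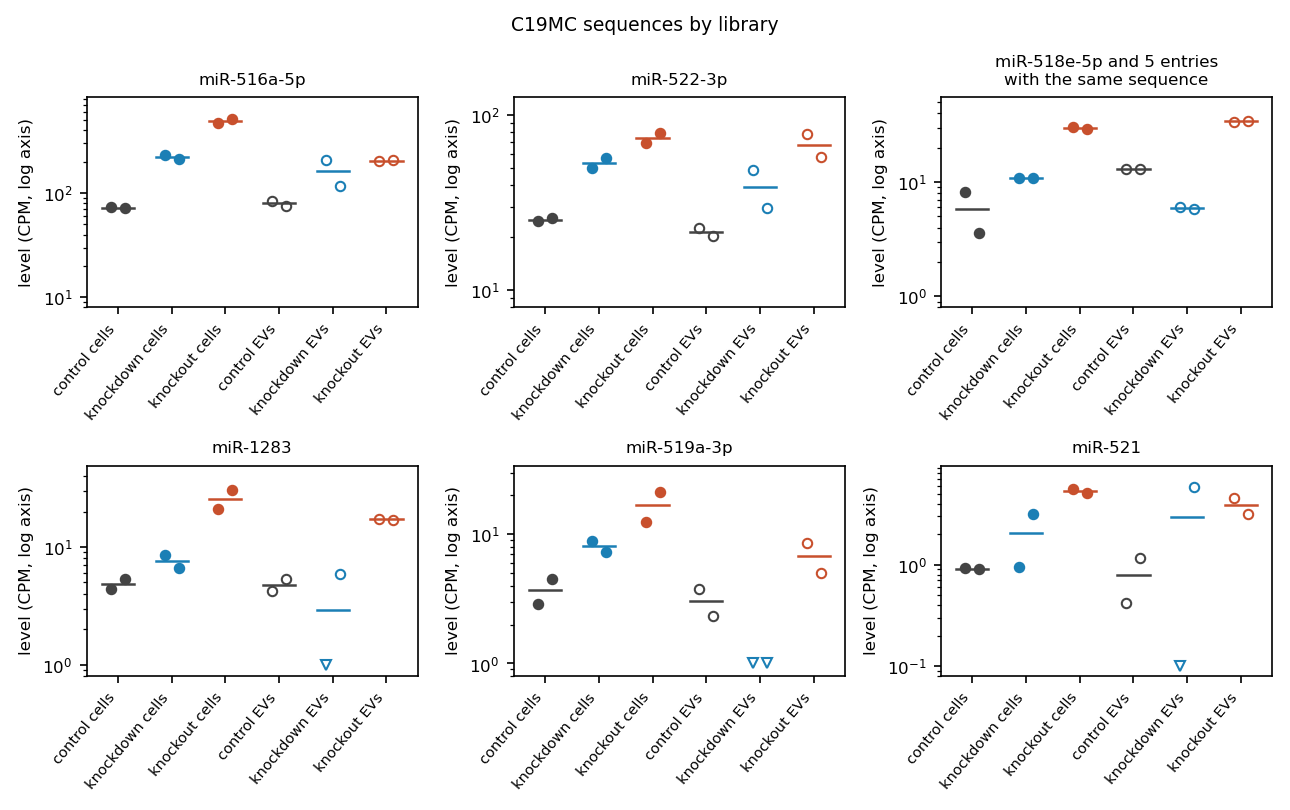
Each panel gives 1 C19MC sequence, with the level of each library in CPM on a log axis, filled points for cells, open points for EVs, horizontal lines for the mean of 2 replicates and triangles at the foot for libraries with no count. The knockout cells lie above the control and knockdown cells in all 6 panels; the knockdown EVs have 0 or 1 count per library for the shared miR-518e-5p sequence, miR-1283, miR-519a-3p and miR-521.

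The first comparison asked how the cells of the knockdown line differed from control cells. Of the 7 C19MC sequences tested in cells, 4 were higher in the knockdown cells and none was lower. The median log2 fold change over the 7 was 1.09. Among the 7, miR-521 and miR-518a-5p passed the filter on low counts only with the knockout cells, and neither was called in this comparison. Over all 613 miRNAs tested, 24.3% were called higher, 29.5% lower, and the median was -0.11. Calls are edgeR quasi-likelihood tests at a Benjamini-Hochberg adjusted p of at most 0.05 over all miRNAs tested, with fold changes after TMM scaling, which puts libraries on a common level by a trimmed mean of their ratios.

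miR-516a-5p was at 73.3 and 72.0 CPM in the control cells and at 231 and 213 CPM in the knockdown cells. Both knockdown libraries lay far above both control libraries, and the sequence rose by 1.63 on the log2 scale, or 3.09-fold (SE 0.13, adjusted p = 1.72e-09). miR-522-3p, the 3p arm of a hairpin near the end of the cluster, was at 24.7 and 25.9 CPM in control cells and at 49.7 and 57.0 CPM in knockdown cells. It rose 2.13-fold, a log2 fold change of 1.09 (SE 0.16, adjusted p = 1.04e-05). miR-519a-3p, which bears the AAGUGC core, was at 2.87 and 4.52 CPM against 8.86 and 7.32 CPM, a log2 fold change of 1.15 (SE 0.34, adjusted p = 0.00757). Its call was lost without control cells replicate 1 (0.83, adjusted p = 0.0689) and without knockdown cells replicate 1 (0.99, adjusted p = 0.106).

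The shared miR-518e-5p sequence was uneven between the control cells, with 96 counts in replicate 1 and 40 in replicate 2, or 8.11 and 3.61 CPM. Both knockdown libraries had 34 counts, 10.8 CPM each, and the log2 fold change was 0.89 (SE 0.32, adjusted p = 0.0248). Without control cells replicate 2 this was 0.45 (adjusted p = 0.248), and the call was also lost without either knockdown library, with library totals (0.87, adjusted p = 0.0640) and with no filter on low counts (0.65, adjusted p = 0.0677). miR-1283 was at 4.39 and 5.33 CPM in control cells and 8.55 and 6.69 CPM in knockdown cells, with a log2 fold change of 0.66 that missed the threshold (SE 0.29, adjusted p = 0.0639). Alternatives in which it passed include RLE scaling factors (0.79, adjusted p = 0.0294) and a fit of the 4 libraries compared (0.71, adjusted p = 0.0316). miR-521 had 11 and 10 counts in control cells against 3 and 10 in the smaller knockdown libraries, and its log2 fold change of 1.17 also missed it (SE 0.57, adjusted p = 0.0928). miR-518a-5p had 4 and 0 counts against 1 and 0, a pooled CPM ratio of 0.909 with an exact 95% interval from 0.0185 to 9.19, which gives no direction.

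In the knockout cells miR-516a-5p, miR-522-3p, the shared miR-518e-5p sequence, miR-1283 and miR-519a-3p were higher than in control cells. These are the 5 sequences that passed the filter on low counts without the knockout libraries. The other 2, miR-521 and miR-518a-5p, were tested only because the knockout cells held enough counts, so their higher level there was favoured by the filter, and they are given as values. Over all 613 miRNAs, 27.7% were called higher, 34.6% lower, and the median was -0.08. The 5 calls held in all 15 alternative analyses run for each. Scaling by library totals in place of TMM lowered the median of all miRNAs by a further 0.339 and the share of higher among called miRNAs from 44.5% to 32.4%, and it kept these 5 calls.

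miR-516a-5p was at 469 and 517.7 CPM in the knockout cells against 73.3 and 72.0 CPM in control cells. It rose 8.59-fold after TMM scaling, a log2 fold change of 3.10 (SE 0.13, adjusted p = 6.99e-14), with values from 2.76 to 3.45 over the alternatives. The ratio of pooled CPM was lower, at 6.78. miR-1283, whose seed CUACAAA no other C19MC entry with a reference sequence has, was at 21.1 and 30.6 CPM, up by 2.73 on the log2 scale (SE 0.22, adjusted p = 1.68e-09). For the shared miR-518e-5p sequence the levels were 30.4 and 28.9 CPM, a log2 fold change of 2.68 (SE 0.26, adjusted p = 1.94e-08). miR-519a-3p was at 12.4 and 21.1 CPM, a log2 fold change of 2.50 (SE 0.27, adjusted p = 8.50e-08). These libraries did not overlap with the control cells in any of the 4 sequences, and the 2 knockout replicates differed most for miR-519a-3p.

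miR-522-3p had the smallest change of the 5. It was at 68.5 and 78.3 CPM, and after TMM scaling 3.67-fold above control, a log2 fold change of 1.87 (SE 0.15, adjusted p = 2.15e-09). The ratio of pooled CPM was lower, at 2.90. miR-521 had 11 and 10 counts in control cells and 56 and 50 in knockout cells, a log2 fold change of 2.85 (SE 0.37). miR-518a-5p had 4 and 0 counts against 17 and 25, a log2 fold change of 3.80 (SE 0.68). This value was 7.13 without control cells replicate 1, which leaves no control count, and 2.92 without control cells replicate 2. The 3p arm of miR-516a, which had too few counts to be tested, had 3 and 1 counts in control cells and 10 and 32 in knockout cells. Its pooled CPM ratio was 12.02 with an exact 95% interval from 4.36 to 46.2; this interval covers counting error only.

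Knockout cells were also above knockdown cells in these 5 sequences, where 30.7% of the 613 miRNAs were called higher and 33.8% lower. miR-516a-5p exceeded its knockdown level 2.78-fold (1.48 on the log2 scale, SE 0.13, adjusted p = 3.16e-09), miR-1283 4.20-fold (2.07, SE 0.25, adjusted p = 4.78e-07) and miR-522-3p 1.72-fold (0.79, SE 0.16, adjusted p = 2.09e-04). miR-521 and miR-518a-5p were again tested only through the knockout cells and are given as values. Their log2 fold changes were 1.68 (SE 0.44) and 3.91 (SE 1.06). Without knockdown cells replicate 1 that of miR-521 was 1.04, and without knockdown cells replicate 2 that of miR-518a-5p was 2.97. With library totals in place of TMM the share of higher among called miRNAs moved from 47.6% to 36.9%. Both comparisons of the edited lines use the same control cells and are therefore not independent of each other.

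**Figure D3:**
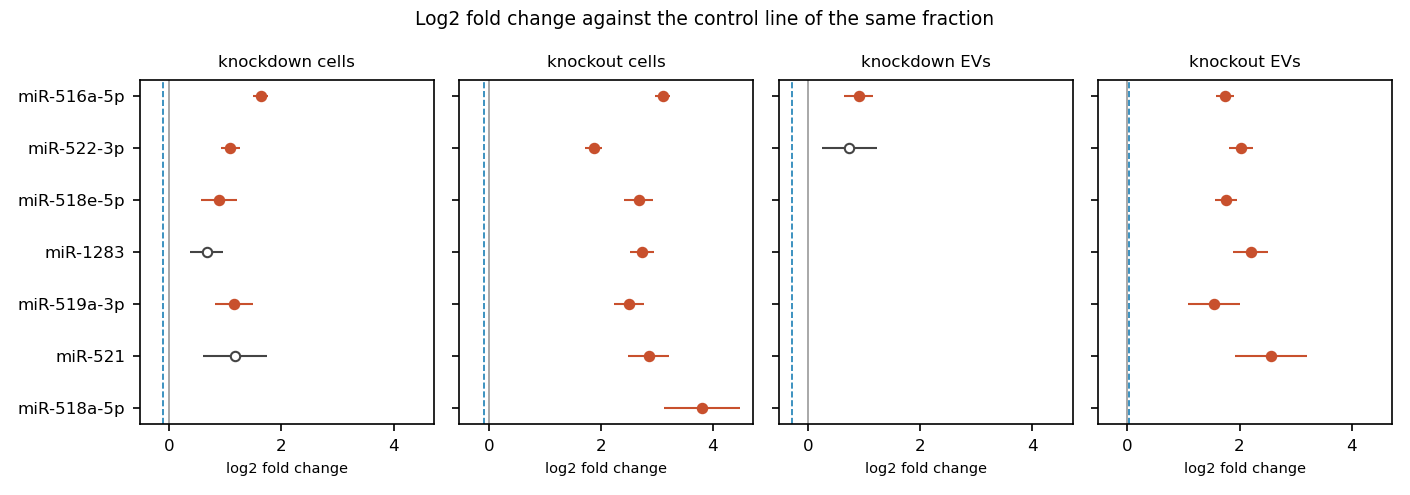
Log2 fold changes of C19MC sequences against the control line, in cells and in EVs, with bars of 1 standard error; filled red points passed an adjusted p of 0.05, open points did not, and the dashed blue line is the median of all miRNAs tested. In knockout cells the points lie between 1.87 and 3.80, the highest being miR-518a-5p with 4 counts in control cells. The red fill of miR-521 and miR-518a-5p in knockout cells was favoured by the filter on low counts. The same holds for miR-519a-3p and miR-521 in knockout EVs. Sequences with 3 or fewer counts in a group, or not tested, have no point.

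The EVs of the knockout line were then set against control EVs. The 4 sequences that passed the filter on low counts without the knockout libraries, miR-516a-5p, miR-522-3p, the shared miR-518e-5p sequence and miR-1283, were higher in knockout EVs than in control EVs, where 18.9% of the 488 miRNAs tested were called higher and 22.3% lower. miR-519a-3p and miR-521 were tested only with the counts of the knockout EVs, so a higher level there was favoured by the filter. With library totals the median of all miRNAs moved by -0.373 and the share of higher among called miRNAs from 45.8% to 19.2%, and the 4 calls remained. When each EV library was thinned to the depth of the shallowest, 1 call was left, that of miR-516a-5p.

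miR-516a-5p was at 83.8 and 75.9 CPM in control EVs and at 203 and 206 CPM in knockout EVs. After TMM scaling, which gives larger rises here than the CPM, it rose 3.33-fold (log2 fold change 1.73, SE 0.16, adjusted p = 1.66e-06). miR-522-3p was at 22.6 and 20.4 CPM against 77.2 and 57.2 CPM, a 4.07-fold rise after TMM scaling (2.03, SE 0.21, adjusted p = 4.28e-06). Levels of the shared miR-518e-5p sequence were 12.99 and 13.1 CPM against 33.6 and 34.4 CPM (1.75, SE 0.20, adjusted p = 9.20e-06). miR-1283 was at 4.19 and 5.39 CPM against 17.3 and 17.1 CPM (2.20, SE 0.31, adjusted p = 7.54e-05). In each of these 4 both knockout libraries were above both control libraries.

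Fewer counts lay behind the other 2 sequences, which were favoured by the filter and are given as values. miR-519a-3p had 9 and 6 counts in control EVs and 32 and 16 in knockout EVs, a log2 fold change of 1.55 (SE 0.46). It fell short of the threshold in 6 of 16 alternatives. Among these were the fits without control EVs replicate 1 (1.78), without control EVs replicate 2 (1.10) and without knockout EVs replicate 1 (1.09). miR-521 had 1 and 3 counts against 17 and 10, a log2 fold change of 2.56 (SE 0.64). It fell short of the threshold in 4 of 16 alternatives: without control EVs replicate 1 (1.92), without knockout EVs replicate 1 (2.23), with DESeq2 (2.55) and when thinned (0.0).

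The knockdown EVs were too shallow for most members. Of the 6 sequences, 1 was called higher than in control EVs and none lower, against 18.9% of the 488 miRNAs called higher and 27.5% lower. miR-516a-5p had 34 and 20 counts, or 206 and 117 CPM, against 83.8 and 75.9 CPM in control EVs, a 1.87-fold rise (log2 fold change 0.90, SE 0.27, adjusted p = 0.0140). The 2 knockdown libraries were far apart, yet both lay above the control EVs. The call was lost in 5 of 16 alternatives, including each fit without a control EV library (adjusted p = 0.0584 and 0.0922) and the fit without knockdown EVs replicate 1 (0.42, adjusted p = 0.341). miR-522-3p had 8 and 5 counts, or 48.6 and 29.3 CPM, and its log2 fold change of 0.74 missed the threshold (SE 0.49, adjusted p = 0.243).

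For the rest the counts allow only bounds. In each knockdown EV library there was 1 count of the shared miR-518e-5p sequence, a pooled CPM ratio to control EVs of 0.458 with an exact 95% interval from 0.0543 to 1.72. miR-1283 had 0 and 1 counts, a ratio of 0.620 with an interval from 0.0151 to 3.80, and miR-521 had 0 and 1 counts, a ratio of 3.72 with an interval from 0.0755 to 37.6. miR-519a-3p had no count in either library, which allows up to 8.95 CPM (3 counts of the 2 libraries together), above its 3.04 ± 1.03 CPM in control EVs (SD, n = 2). A difference from control EVs was not detected for these 4 sequences at this depth. Against knockdown EVs, the 4 sequences that passed the filter without the knockout libraries were higher in knockout EVs, where 22.7% of the 488 miRNAs were called higher and 17.6% lower. The call of the shared miR-518e-5p sequence held in all 16 alternatives, with 2 counts in knockdown EVs and 235 in knockout EVs, a pooled CPM ratio of 5.69 (exact 95% interval from 1.56 to 47.2). Those of miR-516a-5p (log2 fold change 0.83, adjusted p = 0.0123), miR-522-3p (1.29, adjusted p = 0.0200) and miR-1283 (1 count against 119, adjusted p = 0.0216) were all lost with library totals, a correction for GC content or thinning, and without 1 of the knockdown EV libraries. Library totals moved the share of higher among called miRNAs here from 56.4% to 35.3%.

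The next comparisons set EVs beside the cells that released them. In the control line 1 of the 6 sequences was called, as higher in EVs, where 30.8% of the 574 miRNAs tested were called higher and 22.8% lower. That sequence was the shared miR-518e-5p sequence, at 8.11 and 3.61 CPM in cells and 12.99 and 13.1 CPM in EVs (log2 fold change 1.00, SE 0.29, adjusted p = 0.00342). The call was lost without control cells replicate 2 (0.45, adjusted p = 0.202) and with no filter on low counts (0.61, adjusted p = 0.132). With no filter the 1 C19MC call of this comparison was miR-522-3p, lower in EVs (-0.75, adjusted p = 0.00469). miR-516a-5p was at 73.3 and 72.0 CPM in cells and 83.8 and 75.9 CPM in EVs, a log2 fold change of -0.0044 (SE 0.15, adjusted p = 0.990). miR-522-3p was at 24.7 and 25.9 CPM in cells and 22.6 and 20.4 CPM in EVs, a log2 fold change of -0.37 (SE 0.20, adjusted p = 0.123).

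In the knockout line 3 of the 6 sequences were lower in EVs than in cells and none was higher, against 25.8% of the 574 miRNAs called lower and 33.3% higher. The median over the 6 was -0.72 and over all miRNAs 0.04. miR-516a-5p fell from 469 and 517.7 CPM in cells to 203 and 206 CPM in EVs, a log2 fold change of -1.47 (SE 0.14, adjusted p = 1.64e-13). miR-519a-3p was at 12.4 and 21.1 CPM in cells and 8.52 and 5.05 CPM in EVs (-1.47, SE 0.30, adjusted p = 2.96e-05). miR-1283 was at 21.1 and 30.6 CPM in cells and 17.3 and 17.1 CPM in EVs (-0.78, SE 0.22, adjusted p = 0.00231). These 3 calls held in all 21 alternatives, and in each the EV libraries lay below both cell libraries.

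The other sequences of the knockout line did not pass. The shared miR-518e-5p sequence was at 30.4 and 28.9 CPM in cells and 33.6 and 34.4 CPM in EVs, with a log2 fold change of -0.013 (SE 0.21, adjusted p = 1.0). miR-522-3p was at 68.5 and 78.3 CPM in cells and 77.2 and 57.2 CPM in EVs, where the groups overlapped, and its log2 fold change was -0.33 (SE 0.16, adjusted p = 0.0765). That value passed the threshold in 7 alternatives, among them a GC correction (-0.50, adjusted p = 0.00713). miR-521 had a log2 fold change of -0.66 (SE 0.38, adjusted p = 0.134). Alternatives in which it passed include GC correction (-0.95, adjusted p = 0.0255) and no filter on low counts (-1.03, adjusted p = 0.0448). The 3p arm of miR-516a had 10 and 32 counts in knockout cells and 0 and 2 in knockout EVs. Its pooled CPM ratio was 0.138 with an exact 95% interval from 0.0161 to 0.529. That interval covers counting error only and leaves out the spread between the replicates.

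In the knockdown line 1 of the 6 sequences was lower in EVs, against 12% of the 574 miRNAs called lower and 7.32% higher. miR-516a-5p was at 231 and 213 CPM in cells and 206 and 117 CPM in EVs (log2 fold change -0.94, SE 0.22, adjusted p = 7.39e-04). The EV-to-cell ratio of pooled CPM was 0.725, and with library totals the log2 fold change was -0.46 (adjusted p = 0.140). The call was also lost without knockdown EVs replicate 2 (-0.57, adjusted p = 0.122) and in a fit of the 4 libraries compared (-0.91, adjusted p = 0.0599). Library totals moved the share of higher among called miRNAs in this comparison from 37.8% to 75.6%. miR-522-3p had a log2 fold change of -0.93 that missed the threshold (SE 0.38, adjusted p = 0.0828).

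**Figure D4:**
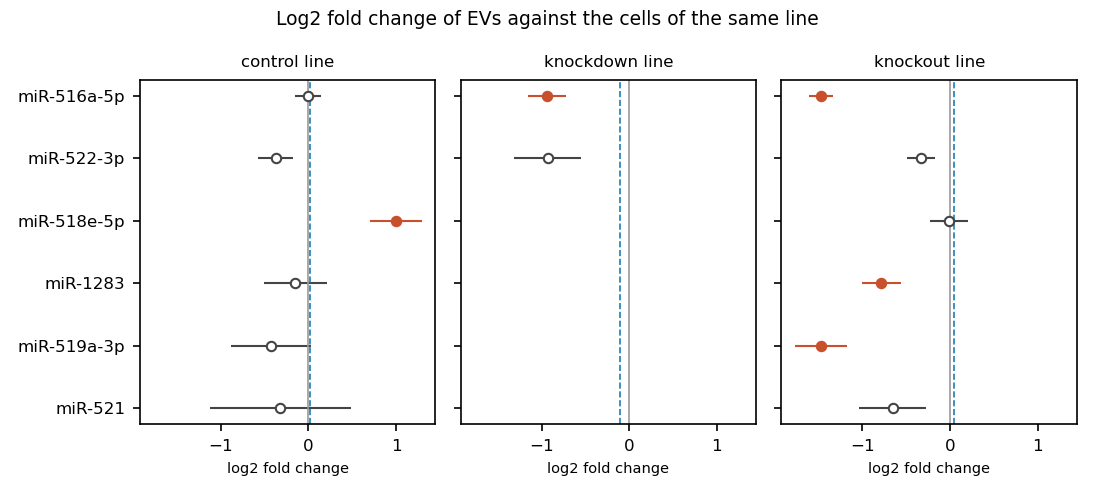
Log2 fold changes of C19MC sequences in EVs against the cells of the same line, with bars of 1 standard error; filled red points passed an adjusted p of 0.05, open points did not, and the dashed blue line is the median of all miRNAs tested. miR-516a-5p lies at -0.0044 in the control line and at -1.47 in the knockout line, while miR-522-3p lies at -0.37 and -0.33; sequences with 3 or fewer counts in a group have no point.

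Whether the EV-to-cell change differed between lines was tested as an interaction. Between the knockout and the control line it differed for 2 of the 6 sequences, both lower in the knockout line, against 23.3% of the 574 miRNAs called in that direction and 24.9% in the other. For miR-516a-5p the difference was -1.47 (SE 0.20, adjusted p = 2.11e-08), and it stayed between -1.74 and -1.39 and past the threshold in all 20 alternatives. For the shared miR-518e-5p sequence it was -1.01 (SE 0.36, adjusted p = 0.0177), but -0.68 (adjusted p = 0.104) without control cells replicate 2, and the call was also lost without control EVs replicate 1 (adjusted p = 0.0545), without control EVs replicate 2 (adjusted p = 0.0591), without knockout EVs replicate 1 (adjusted p = 0.0755) and with GC correction (-0.80, adjusted p = 0.0621). For miR-522-3p the difference was 0.044 (SE 0.26, adjusted p = 0.984) and for miR-519a-3p -1.05 (SE 0.58, adjusted p = 0.137). The difference for miR-519a-3p passed the threshold with GC correction (-1.65, adjusted p = 0.0165), also with a replicate term added (-1.63, adjusted p = 0.0189). Without knockout cells replicate 1 it was -1.31. For miR-1283 the difference was -0.63 (SE 0.44, adjusted p = 0.257) and for miR-521 -0.33 (SE 0.97, adjusted p = 0.878).

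Between the knockdown and the control line the EV-to-cell change differed for 1 of the 6 sequences, again lower, against 14.3% of the 574 miRNAs in that direction and 4.36% in the other. The difference for miR-516a-5p was -0.93 (SE 0.27, adjusted p = 0.00793). It was lost with library totals (-0.60, adjusted p = 0.132), which moved the share of higher among called miRNAs from 23.4% to 52.6%, with no filter on low counts (-0.59, adjusted p = 0.420), with GC correction (-0.54, adjusted p = 0.172), and without knockdown EVs replicate 2 (-0.57, adjusted p = 0.199) or control cells replicate 2 (-0.81, adjusted p = 0.0700). Both interactions use the same control libraries. Blood and serum miRNAs were high in the control EVs alone, and their part in these differences was not tested.

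The balance within the cluster can be read without any scaling of the libraries, from the counts of miR-516a-5p per count of miR-522-3p in the same library. In control cells the ratio was 2.97 and 2.78, in knockdown cells 4.65 and 3.74, and in knockout cells 6.84 and 6.61. The 3 lines did not overlap in cells. In EVs the ratio was 3.70 and 3.72 in the control line, 4.25 and 4.0 in the knockdown line, and 2.63 and 3.602 in the knockout line. Pooled over replicates the knockout line had 6.72 in cells (exact 95% interval from 6.36 to 7.11) and 3.01 in EVs (from 2.71 to 3.34), and the control line had 2.88 in cells (from 2.61 to 3.17) and 3.71 in EVs (from 2.99 to 4.64). These intervals cover counting error only, since reads without molecular identifiers are not independent molecules. A ratio within a library shows that the 2 sequences changed unequally, not that one of them stayed the same.

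**Figure D5:**
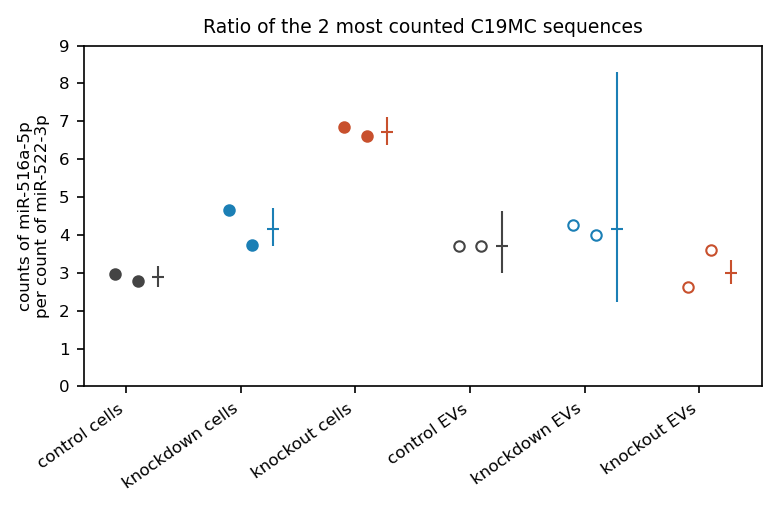
Counts of miR-516a-5p per count of miR-522-3p in each library (filled points for cells, open points for EVs), with the ratio pooled over 2 replicates and its exact 95% interval drawn to the right of each group. The ratio is 2.97 and 2.78 in control cells and 6.84 and 6.61 in knockout cells, whose EVs have 2.63 and 3.602; the interval of the knockdown EVs, with 13 counts of miR-522-3p, spans 2.24 to 8.30.

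Not every pair separated all 3 lines. The counts of the shared miR-518e-5p sequence per count of miR-522-3p were 0.329 and 0.139 in control cells and 0.217 and 0.190 in knockdown cells, where the groups overlapped. In knockout cells they were 0.443 and 0.369, above each control and knockdown cell library. As a share of the cluster, miR-516a-5p made up 63.6% ± 0.0782 of the C19MC counts in control cells, 72.7% ± 2.0 in knockdown cells and 76.1% ± 1.15 in knockout cells (SD, n = 2). In EVs its share was 63.5% ± 1.69 in the control line, 74.4% ± 4.13 in the knockdown line and 60.8% ± 3.05 in the knockout line. The share of miR-522-3p went from 22.1% ± 1.09 in control cells to 17.5% ± 2.19 in knockdown cells and 11.3% ± 0.102 in knockout cells. In EVs it was 17.1% ± 0.498 in the control line, 18.02% ± 0.230 in the knockdown line and 19.9% ± 3.38 in the knockout line, without the order seen in cells. The shared miR-518e-5p sequence made up 10.4% ± 0.514 of the C19MC counts in control EVs and 10.1% ± 0.604 in knockout EVs, against 5.11% ± 2.71 and 4.59% ± 0.555 in the cells of these lines. In the knockdown line it was 2.92% ± 0.918 in EVs, on 2 counts, and 3.53% ± 0.117 in cells. The counts of the 5p arm of miR-516a per count of its 3p arm were 289 and 797 in control cells, 365 and 670 in knockdown cells and 477 and 159 in knockout cells, so the lines overlapped.

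Seeds outside the cluster give these levels a scale. The seed AAGUGCU of miR-520a-3p, miR-520c-3p and miR-520d-3p, shared with miR-302 and miR-372, had 2 counts among C19MC entries and 1 count among the others. miR-520c-3p and miR-373-3p are known for promoting the invasion of a breast cancer line, and they had 2 counts and 0. The seed AAAGUGC had no count in C19MC, while the miR-17 family members that carry it had 571492. The C19MC sequence with an AAGUGC core that was counted most was miR-519a-3p, at 3.69 ± 1.16 CPM in control cells and 16.8 ± 6.19 CPM in knockout cells (SD, n = 2). The 13 listed relatives outside the cluster summed to 12014 ± 338 CPM in control cells and 5716 ± 439 CPM in knockout cells. Of the 6 relatives tested, none was called higher and 4 were called lower in knockout cells, where 27.7% of all miRNAs were called higher and 34.6% lower: miR-20a-5p (-3.31), miR-20b-5p (-3.86), miR-17-5p (-0.90) and miR-106a-5p (-0.72). In knockdown cells 2 of the 6 were called higher and 2 lower, where 24.3% of all miRNAs were called higher and 29.5% lower.

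The next miRNA cluster on the chromosome was hardly detected. MIR371A to MIR373 lie 25.25 kb beyond the last C19MC hairpin, at 53787675 to 53788773 of chromosome 19 (GRCh38.p14, plus strand), and are known from embryonic stem cells and germ cell tumours. Of the 8 entries of that cluster, 7 had no count and miR-371a-5p had 3, with none in control cells or knockout cells. The rise of C19MC sequences in knockout cells was measured beside a neighbouring cluster with 0 counts, which allows up to 0.150 CPM in the knockout cells (3 counts of the 2 libraries together).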

How the data were processed

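The values were counts per mature miRNA, deposited by the authors as whole numbers without normalization, for 12 libraries, 2 in each of 6 groups taken from the labels. Reads were handled with cutadapt and Bowtie on build hg19, per the submitters' processing notes. Tool versions, the miRNA annotation, allowed mismatches and the handling of reads with several matches were not given in the sources used here. Library totals ran from 164656 to 11840597 counts, so precision differed most for the knockdown EVs, where 1 count is about 6 CPM.

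Members, lists, tests and the names printed were chosen with earlier results of these data known. Every tested member, all members with at least 50 counts and those singled out by their sequence were named. CPM are counts per 1000000 counts of a library. Line comparisons were fitted on the 6 libraries of cells or of EVs, and EV-to-cell comparisons and interactions on all 12, with edgeR 4.0.16 (limma 3.58.1, R 4.3.3): TMM factors, its default filter on low counts, a quasi-likelihood F test per miRNA and Benjamini-Hochberg adjustment over all miRNAs tested (613 in cells, 488 in EVs, 574 in all 12). Calls are adjusted p of at most 0.05, and a standard error is the log2 fold change divided by the root of F. C19MC had 13 entries (7 sequences) tested in cells and 11 entries (6 sequences) in the other fits. Groups with 3 or fewer counts are given as pooled CPM ratios with exact 95% binomial intervals, which cover counting error only. The code was tested on simulated data. Alternatives were other scalings (RLE factors, library totals), no filter, DESeq2 1.42.0, identical rows collapsed, GC correction, thinned EV libraries, fewer libraries and a replicate term. Whether same-numbered libraries share a culture is not given, and the main fits did not pair them. The RefSeq table (GRCh38.p14) had a sequence for 55 of the 61 entries; for 6, miR-522-3p among them, no sequence is printed.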

Additional observations from a re-analysis of the deposited data

Results flagged for a closer look

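In 3 results the EV-to-cell change of a C19MC sequence differed between an edited line and the control line by the interaction test of edgeR over all 574 miRNAs. For miR-516a-5p the knockout line minus the control line gave -1.47 (log2 scale, adjusted p = 2.11e-08), with 2 of 2 EV libraries below both cell libraries in the knockout line and 2 of 2 above both in the control line on the CPM scale. For the same sequence the knockdown line minus the control line gave -0.93 (adjusted p = 0.00793), on 54 counts in the knockdown EVs. For the shared miR-518e-5p sequence the knockout line minus the control line gave -1.01 (adjusted p = 0.0177), and the 2 control cell libraries behind it held 96 and 40 counts. Groups of 2 libraries are too small for a check of single outlying libraries.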

How the results depend on the processing

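Of 37 called C19MC results, 20 kept direction and call in every alternative run. The 611 values of these 37 under alternatives stayed past the threshold in 551 cases, fell short in 60 and changed sign in none. The 37 include calls of miR-521 and miR-518a-5p in knockout cells and of miR-519a-3p and miR-521 in knockout EVs. Those of miR-521 and miR-518a-5p in knockout against control cells are also among the 20. All of these were favoured by the filter on low counts, so their being kept is no support. The 32 results not called had 610 such values, of which 24 passed the threshold and 35 had the other sign, none of these past the threshold. Depth limits the knockdown EVs, and an entry without a reference sequence, as miR-522-3p, had the median GC content in the GC correction.

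Counts of called C19MC sequences moved as follows. Knockdown against control EVs: from 1 to 0 without a filter or thinned, 2 with the replicate block and GC correction. Knockout against control EVs: from 6 to 1 when thinned, with all miRNAs called going from 201 to 46. The 6 include miR-519a-3p and miR-521, which were favoured by the filter on low counts. Knockout against knockdown EVs: from 4 to 1 with library totals, GC correction, GC correction with the replicate block, or thinning. EVs against cells of the knockdown line: from 1 to 0 with library totals or only the 4 libraries compared, which took all calls from 111 to 73. The knockout line: from 3 to 7 without a filter and 5 with GC correction, with or without the replicate block. EVs against cells of the control line: from 1 higher to 1 lower without a filter. Interaction of the knockdown line: from 1 to 0 with library totals, no filter or GC correction, alone or with the replicate block, and 2 with the replicate block alone. Leaving out 1 library gave 0 to 1 calls for knockdown against control EVs, 2 to 4 for knockout against knockdown EVs, 0 to 1 for EVs against cells of the control line and of the knockdown line (all miRNAs 72 to 127), 0 to 2 for the knockdown interaction and 1 to 3 for the knockout interaction. The causes were not tested.

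Whether the replicate numbers pair the samples is not given in the sources used here. Deviations of same-numbered libraries correlated between -0.0746 and 0.0764, which cannot show that they are unpaired, since counting noise also lowers such a correlation. The replicate block changed no other count by over 1.5 times.

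Summed C19MC levels with each identical row counted were 144.0 CPM in control cells, 360.3 in knockdown cells, 801.1 in knockout cells, 191.6 in control EVs and 508.8 in knockout EVs. With TMM library sizes they were 321.9 in knockdown cells, 812.3 in knockout cells, 114.7 in control EVs and 366.3 in knockout EVs.

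Signs changed in results that were not called. miR-518a-5p in knockdown cells gave 0.0073 with RLE factors and 0.035 with DESeq2, and -3.68 to 3.24 without 1 library. miR-516a-5p in control EVs against cells gave 0.042 (RLE), 0.13 (library totals), 0.035 (identical rows collapsed) and 0.041 (DESeq2), and -0.11 to 0.074 without 1 library. The shared miR-518e-5p sequence in knockout EVs against cells gave 0.20 (library totals), 0.098 (GC correction) and 0.099 (GC correction with the replicate block), and -0.23 to 0.11 without 1 library. miR-522-3p in the knockout interaction gave -0.10 (RLE), -0.0062 (collapsed), -0.090 (GC correction), -0.10 (GC correction with the replicate block) and -0.10 (DESeq2), and -0.15 to 0.21 without 1 library. miR-521 in knockout against knockdown EVs gave -2.27 when thinned and -0.080 to 6.36 without 1 library. Without 1 library, miR-1283 gave -6.43 to 0.15 in knockdown EVs and -0.34 to 0.0051 in control EVs against cells. miR-521 gave -3.92 to 2.65 in knockdown EVs, -1.21 to 0.18 in control EVs against cells, -6.50 to 1.14 in knockdown EVs against cells, -6.18 to 1.47 in the knockdown interaction and -0.84 to 0.55 in the knockout interaction.

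Among all called miRNAs the share that was higher went from 40.7% to 58.1% in knockdown EVs with GC correction and from 45.8% to 35.1% in knockout EVs with DESeq2.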
